A study of Mus musculus with 25 samples.

Results

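The cells described here are the pericyte-like cells of the mouse lung that carry Cox4i2 and Higd1b together. They were picked from single-cell RNA-seq libraries by UMIs (unique molecular identifiers, each standing for 1 captured RNA molecule). A barcode was kept as a cell when 200 to 7500 genes were detected and mitochondrial genes took up no more than 20% of its UMIs, and a kept cell was a member when it held at least 2 UMIs of Cox4i2 and at least 1 of Higd1b, fewer than 3 of Myh11, fewer than 5 of Hhip and 0 of Cdh5. This gave 431 of 12059 kept cells. The upper limits kept out cells with the smooth muscle myosin Myh11, the Hhip myofibroblasts and the Cdh5 endothelial cells. Pericytes are the mural cells of capillaries: they lie inside the basement membrane of the vessel, wrap the endothelium, and respond to the PDGF and Notch signals that endothelial cells send. In the lung they are studied for their part in capillary stability and as one possible source of matrix-producing cells in fibrosis.

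To investigate how loss of Fas, a death receptor, in fibroblasts alters lung fibrosis and its resolution, the study sorted lineage-negative (Lin–) lung cells, that is cells negative for the leukocyte marker CD45, the endothelial marker CD31 and the epithelial marker CD326, from Col1a1-Cre-ERT2;Fas fl/fl mice. The 5 conditions were naive mice and, at 3 weeks or 6 weeks after intratracheal bleomycin, an agent that injures the lung, mice of either Fas genotype, Fas+/+ or Fas-/-. All groups carried the Cre and the floxed Fas alleles: mice called Fas-/- had received tamoxifen after bleomycin and mice called Fas+/+ the oil vehicle, so that genotype and tamoxifen cannot be told apart. For the sequenced naive mice the study names no injection, so bleomycin and the injections cannot be told apart in comparisons with naive mice. The Cre recombinase is driven by the Col1a1 promoter. A Col1a1 UMI was found in 71.4 to 79.5% of the pericyte-like cells of a library, against 11.1 to 39.6% of endothelial cells with Cdh5. The study reports that loss of the floxed Fas exon was similar across its cell clusters, which include pericyte-like cells, without showing the data. Recombination in the members chosen here was not tested. Each condition had 1 single-cell library from pooled mice and 4 bulk RNA-seq libraries. The naive single-cell library held 49 members, the libraries of week 3 held 108 (Fas+/+) and 83 (Fas-/-), and those of week 6 held 80 (Fas+/+) and 111 (Fas-/-). Because there was 1 library per condition, no test between conditions was possible in single cells, and the intervals given for them (95%, exact Poisson for levels and Clopper-Pearson for shares) cover counting error only.

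The members' depth was below that of the other cells. Their median was 5057 UMIs per cell in the naive library, 5687 and 3875 in Fas+/+ and Fas-/- mice at 3 weeks, and 5905 and 4576 at 6 weeks, and 4892 over all 431, against 7432 over all kept cells. The libraries also shared barcodes. Of 11100 distinct kept barcodes, 543 occurred in at least 2 libraries, and 57.0% of the kept cells of the naive library carried a barcode that was also kept in another library. The 249 barcodes shared by the naive library and the Fas-/- library at 6 weeks had a median profile correlation of 0.583 between their copies, against 0.353 for other barcodes, and medians of 9646 UMIs in the first and 955 in the second. Thus a part of the shallow cells in 1 library resembled deep cells of another, and what made these copies was not tested. Among the members 40 had a shared barcode, and 21 of them (0 in the naive library, 1, 1, 6 and 13 in the others) had a deeper copy elsewhere. These 21 cells held a median of 648 UMIs and 20583 of the members' 2291997 UMIs. Shares of members are therefore given with and without barcodes that had a deeper copy, whereas counts of members with a UMI of a gene include them. Levels hardly moved: the Cox4i2 level in the Fas-/- library at 6 weeks was 3294 CPM (UMIs of the gene scaled to the same total of UMIs in every library) with these cells and 3272 CPM without them.

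To check the label, the other genes of pericytes were examined in each member. All 431 had a UMI of at least 3 of 20 pericyte genes outside the rule, with a median of 14 of 20. Vtn, which encodes the adhesion glycoprotein vitronectin, had a UMI in 84.7% of the members and in 0.613% of 1793 cells with at least 2 Cdh5 UMIs, endothelial cells that should lack it and so measure free RNA, at median depths of 4892 and 5241 UMIs. Likewise Notch3, the Notch receptor of mural cells, was seen in 92.8% of members against 2.06%, Cspg4, which encodes the NG2 proteoglycan, in 72.4% against 1.28%, and Ndufa4l2 in 95.4% against 2.18%. Markers of other cells were scarce. At least 3 endothelial markers were found in 7 members (1.62%), whereas no member had 3 epithelial, immune or red cell markers, and Ptprc and Epcam, the genes of CD45 and CD326, were at 0 UMIs in all 431. Fibroblast genes were the exception, with at least 3 of 7 alveolar fibroblast markers in 147 members (34.1%). The part of free RNA in this count was not tested. Some markers often used for pericytes were weak: Rgs5, a regulator of G protein signalling, had a UMI in 8.12% of members against 3.29% of the Cdh5 cells, and Kcnj8 and Abcc9, the subunits of a vascular potassium channel, were at 51.2 ± 33.8 and 37.0 ± 23.8 CPM (SD, n = 5 libraries).

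The limits of the rule cut through a graded edge. Members had a median of 14 Cox4i2 UMIs (2 to 81) and 7 Higd1b UMIs (1 to 58). The 33 members with exactly 2 Cox4i2 UMIs had 833 CPM of Ndufa4l2 and 902 CPM of Vtn, whereas the 39 cells just outside with 1 Cox4i2 UMI had 484 and 222 CPM. Beyond the Myh11 limit lay 168 cells that met the rest of the rule. They still had 1435 CPM of Ndufa4l2, but 4953 CPM of Acta2, the smooth muscle actin, against 645 CPM in the members.

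The largest share of these cells was in the naive library. They made up 8.13% of its kept cells (6.07 to 10.6), 4.05% (3.34 to 4.87) and 3.18% (2.54 to 3.93) in Fas+/+ and Fas-/- mice at 3 weeks, and 2.47% (1.96 to 3.06) and 3.77% (3.11 to 4.52) at 6 weeks. The naive interval lay above the others and the Fas+/+ interval at 6 weeks below that of Fas-/- mice. However, Cdh5 cells escaped the sort unevenly, at 36.4% of the kept cells in Fas+/+ mice at 6 weeks and at 1.49 to 7.88% in the other libraries. Among kept cells with no UMI of Cdh5, Epcam or Ptprc the shares became 8.28% (6.19 to 10.8), 4.64% (3.82 to 5.57), 3.46% (2.77 to 4.28), 4.45% (3.54 to 5.51) and 4.19% (3.46 to 5.03) in the same order. The naive library remained highest, but the difference between the genotypes at 6 weeks was no longer seen. Without barcodes that had a deeper copy in another library, these shares were 8.45%, 4.80%, 3.89%, 4.56% and 4.41%. The shares of all kept cells were then 8.29%, 4.17%, 3.54%, 2.42% and 3.90%. Among kept cells with at least 3000 UMIs, each thinned to that number (493, 2188, 1844, 2517 and 2171 cells), the shares were 8.32%, 4.71%, 3.69%, 3.06% and 4.15%. A large naive share was not limited to these cells. Of all kept cells, the Myh11 cells defined below made up 8.29% in the naive library and 4.51 to 7.88% in the others. The Npnt fibroblasts made up 43.4% against 17.5 to 37.3%. Hhip cells were at 11.3% in the naive library and in Fas-/- mice at 6 weeks, and at 5.41 to 8.41% in the rest.

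**Figure D1:**
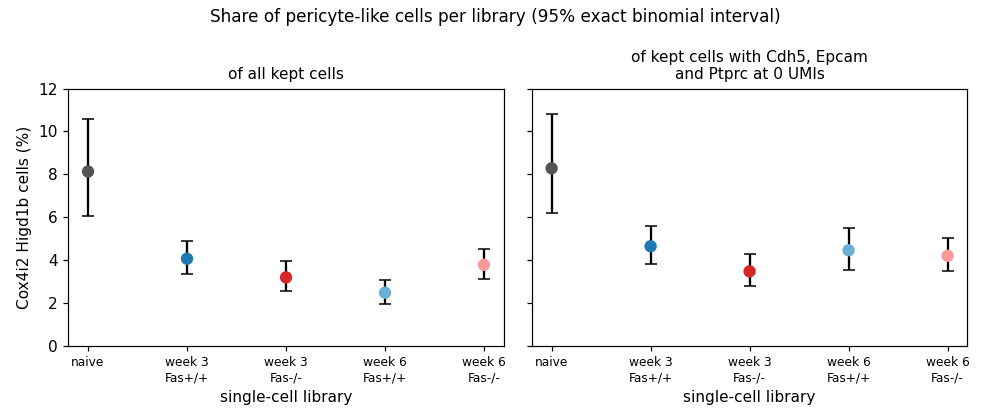
Share of pericyte-like cells in each of the 5 single-cell libraries, in percent, as a share of all kept cells (left) and of kept cells with Cdh5, Epcam and Ptprc at 0 (right). Points are libraries and bars 95% exact binomial intervals: naive is highest in both panels, and the Fas+/+ library at 6 weeks moves from 2.47% to 4.45%.

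Cox4i2, Ndufa4l2 and Higd1b, by which pericytes of the lung are often told, are each the rarer member of a pair of related genes for proteins of mitochondrial respiration. Cox4i1 and Cox4i2 encode alternative forms of subunit IV of cytochrome c oxidase, Ndufa4 encodes a small subunit of the same complex to which Ndufa4l2 is related, and Higd1a and Higd1b encode hypoxia-inducible domain proteins. On GRCm38.p6, the build of the files, Cox4i2 lies on chromosome 2 from 152753916 to 152765039, Ndufa4l2 on chromosome 10 from 127509274 to 127517154 and Higd1b on chromosome 11 from 102835761 to 102844141. Cox4i2 was at 3419 CPM in naive members, 3085 and 2328 CPM in Fas+/+ and Fas-/- members at 3 weeks, and 3215 and 3294 CPM at 6 weeks. Since the rule asked for Cox4i2 and Higd1b, their levels are a description. The common form was present beside it: Cox4i1 was at 479 to 537 CPM in members, so that the rarer form held the larger number of molecules in every library.

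In the Ndufa4 pair the common gene was nearly lacking. Ndufa4l2 had 1725, 1693, 1957, 1678 and 1517 CPM in the members of the 5 libraries in the order above, and Ndufa4 had 39.3, 33.3, 12.1, 23.9 and 64.5 CPM. Ndufa4 UMIs occurred in 5 of 49, 11 of 108, 4 of 83, 6 of 80 and 10 of 111 members. By contrast, Ndufa4 averaged 361 ± 49.3 CPM (SD, n = 5 libraries) in the Myh11 cells, 425 ± 25.6 CPM in the Hhip cells and 422 ± 13.8 CPM in the Npnt fibroblasts, against 34.6 ± 19.6 CPM in the members, and the members were lower in all 5 libraries (log2 fold change -3.47, -3.77 and -3.77). Higd1b was at 1387 to 1755 CPM and Higd1a at 59.3 to 118 CPM in members. In the plot of the pairs, the separation of the classes by Cox4i2 and Higd1b was set by the rule, whereas the Ndufa4 pair was not part of it.

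**Figure D2:**
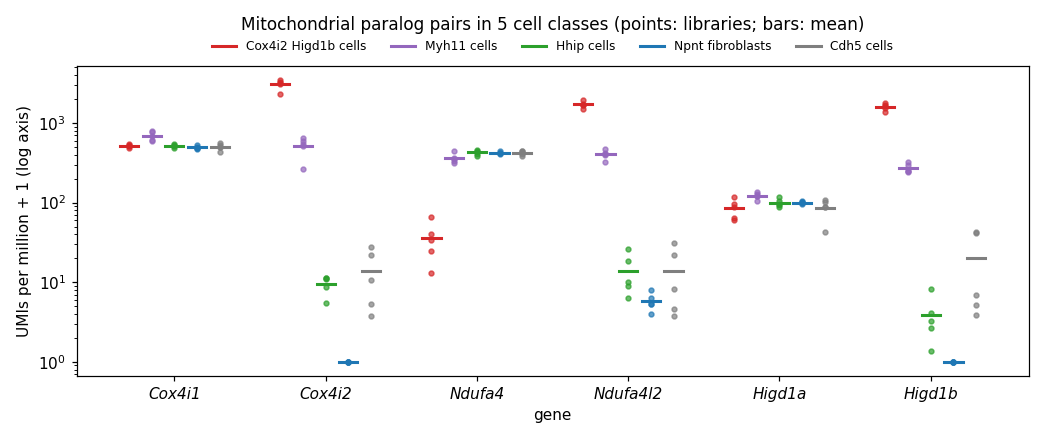
Levels of 3 gene pairs (Cox4i1 and Cox4i2, Ndufa4 and Ndufa4l2, Higd1a and Higd1b) in 5 cell classes, in CPM + 1 on a log axis. Points are the 5 libraries and bars their mean: Ndufa4 is at 12.1 to 64.5 CPM in the pericyte-like cells, where Ndufa4l2 is at 1517 to 1957 CPM.

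The classes set beside the members were cut on UMIs of the same cells: Myh11 cells (at least 3 Myh11 UMIs, 753 cells, with the genes of vascular smooth muscle), Hhip cells (at least 5 Hhip UMIs, 962 cells) and Npnt fibroblasts (at least 2 Npnt and 1 Tcf21 UMIs with neither Cox4i2 nor Higd1b, 3643 cells). UMIs were summed per class and library and compared within libraries by the quasi-likelihood test of edgeR. Median depths were 8490, 12206 and 10649 UMIs per cell in these classes, above the 4892 of the members. As the cells were chosen by their own RNA, the counts below describe the classes and test nothing, and a gene is counted as higher or lower at a Benjamini-Hochberg adjusted p under 0.05. Of all genes tested, 21.4% were higher and 22.4% lower in members than in Myh11 cells, 21.9% and 24.7% against Hhip cells, and 21.6% and 24.4% against Npnt fibroblasts.

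Of the 20 pericyte genes outside the rule 19 passed the filter on low counts. Against Myh11 cells 15 were higher and 1 lower, against Hhip cells 16 and 3, and against Npnt fibroblasts 16 and 1, with median log2 fold changes of 1.60, 5.63 and 5.73, whereas the median over all genes tested was 0.02, 0.01 and 0.01. Vtn (chromosome 11, 78499120 to 78502325) was at 782, 693, 657, 820 and 640 CPM in the members of the 5 libraries, and 60.2% of its UMIs over all kept cells were in the members. Pdzd2 (chromosome 15, 12359711 to 12739968), a PDZ domain protein, was at 5647, 5547, 5347, 5636 and 5605 CPM, with 39.3% of its UMIs. Both genes were higher in members than in Myh11 cells of every library. In addition, Fam162b (66.9%), Adcy8 (62.2%), a calcium-stimulated adenylyl cyclase, Gap43 (57.8%) and the angiotensin receptor gene Agtr1a (52.9%) had most of their UMIs in the 431 members.

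Genes that set the tone of vessels were mostly higher than in the other classes. The soluble guanylate cyclase that senses nitric oxide is made of the products of Gucy1a1 and Gucy1b1, and Pde5a encodes the enzyme that degrades its cyclic GMP. Gucy1a1 was at 4193, 4018, 3981, 3719 and 3915 CPM in the 5 libraries, and Gucy1b1 and Pde5a at 2659 ± 240 and 3041 ± 334 CPM (SD, n = 5). These levels differed little between libraries. Of 20 genes of vascular tone, 12 were higher and 3 lower than in Myh11 cells (19 tested), 14 and 4 against Hhip cells (18 tested) and 14 and 2 against Npnt fibroblasts (18 tested). Gucy1a1 exceeded the Myh11 cells by 1.98 and the fibroblasts by 5.57 on the log2 scale. Of the endothelin receptors, Ednra was at 436 ± 32.3 CPM and Ednrb at 11.5 ± 23.7 CPM.

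In comparison with vascular smooth muscle, contractile genes were low. All 15 tested contractile genes were lower in members than in the Myh11 cells, whose definition used Myh11 of the same group; against Hhip cells 5 were higher and 6 lower of 14, and 10 of 13 were higher than in Npnt fibroblasts. Acta2 was at 653 ± 444 CPM in members and 15130 ± 1713 CPM in Myh11 cells. Cnn1, a calponin, was at 4.77 ± 2.66 against 906 ± 164 CPM, and Actc1, the cardiac actin, at 12.3 ± 8.60 against 2062 ± 393 CPM. However, Des, which encodes desmin and is often used to stain pericytes, was present at 830 ± 96.5 CPM, lower than in Myh11 cells by 1.53 and higher than in Npnt fibroblasts by 2.48 on the log2 scale.

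Among matrix genes, those of the group of fibrillar matrix and fibrosis were mostly lower than in the other classes, whereas those of the basement membrane were divided. Col4a1, the main collagen of basement membranes, was at 2231 ± 307 CPM (SD, n = 5) against 836 CPM in Myh11 cells, 546 CPM in Hhip cells and 536 CPM in Npnt fibroblasts, higher in members by 1.25, 1.95 and 1.95 on the log2 scale. Of 18 basement membrane genes, 9 were higher and 6 lower than in Myh11 cells (17 tested), 6 and 3 against Hhip cells (16 tested) and 8 and 6 against Npnt fibroblasts. In contrast, of 24 tested genes of fibrillar matrix, 15, 18 and 18 were lower than in the 3 classes and 3, 4 and 5 higher. Col1a1, whose promoter drives the Cre of these mice, was at 578 ± 146 CPM, lower than in the 3 classes by 1.08, 2.56 and 2.29 on the log2 scale. Postn, which encodes the matricellular protein periostin, went against the group: it was at 4291, 3477, 3556, 3195 and 3676 CPM, and 28.2% of its UMIs were in the members.

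Receptors and targets of PDGF, Notch and TGF-beta were divided. Of 21 such genes, 8 were higher and 6 lower than in Myh11 cells (19 tested), 9 and 8 against Hhip cells (18 tested) and 8 and 8 against Npnt fibroblasts (20 tested), with median log2 fold changes of -0.10, 0.03 and -0.21. On the higher side, Pdgfrb, the receptor by which endothelial PDGF-B recruits pericytes, was higher than in Myh11 cells and Npnt fibroblasts by 1.83 and 4.57 on the log2 scale, and Notch3 by 1.06 and 7.03. Pdgfra, the receptor that marks fibroblasts, was at 34.5 CPM in members. Of 20 transcription factor genes, 10 were higher and 5 lower than in Myh11 cells (16 tested), 11 and 3 against Hhip cells (15 tested) and 12 and 3 against Npnt fibroblasts (15 tested). Ebf1 (1062 ± 72.2 CPM) exceeded the Npnt fibroblasts by 7.12 on the log2 scale, Epas1, which encodes HIF-2α (749 ± 86.8 CPM), by 3.83, and Tbx2 (1465 ± 169 CPM) by 1.85. Tcf21, the fibroblast factor that was part of the definition of the Npnt class, was still at 331 ± 59.6 CPM in members.

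Genes of the immediate early response, which cells induce within minutes of stress or growth signals, were low. All 12 were lower in members than in Myh11 cells and than in Hhip cells, and 11 of 12 were lower than in Npnt fibroblasts. Fos was at 256 ± 156 CPM in members against 1939, 1342 and 918 CPM in the 3 classes, and Junb was lower by 2.10, 2.94 and 2.19 on the log2 scale. Interferon and MHC class I genes were higher against Myh11 cells in 9 of 13 and lower in 0 of 13, with 3 higher and 3 lower of 14 against Hhip cells and 5 and 3 of 15 against Npnt fibroblasts. Apart from the fixed groups, the genes with the lowest adjusted p included Lipg, Cadm1, Cxcl14, Retreg1, Cxcr4 and Rgcc on the higher side of the comparison with Myh11 cells, by 2.79 to 3.08 on the log2 scale, and Nrarp, a target of Notch signalling, against Hhip cells (201 ± 39.5 against 0.621 ± 0.517 CPM). Gsn, which encodes gelsolin, was among the lower genes with the lowest adjusted p against both Hhip cells and Npnt fibroblasts. It was at 1486 ± 538 CPM in members, 11371 ± 2631 CPM in Hhip cells and 17110 ± 5302 CPM in Npnt fibroblasts.

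To see how these cells differed after bleomycin, levels were compared between libraries. A gene with at least 20 UMIs over both libraries was counted when its ratio passed 2-fold. Against the naive library 2.66% of genes were 2-fold higher and 4.75% lower in Fas+/+ members at 3 weeks, 3.46% and 4.86% in Fas-/- members at 3 weeks, 3.02% and 3.47% in Fas+/+ members at 6 weeks, and 4.19% and 3.74% in Fas-/- members at 6 weeks. The balance of the 2 sides depended on the processing: for Fas+/+ members at 3 weeks 169 genes were higher and 302 lower, but 128 and 118 with a pseudocount of 10 CPM, and 322 and 222 without the highest cell of each gene. The comparisons with naive mice share 1 library of 49 members. Leaving out 1 cell takes a larger part of these than of the 80 to 111 members of the others, which can itself raise ratios to naive. Of the 22 pericyte genes 19, 18, 19 and 18 had enough UMIs in the 4 comparisons, with median log2 ratios of -0.03, -0.13, -0.06 and -0.18, where the medians over all genes were -0.12, -0.08, -0.04 and -0.06. As the rule kept cells that carry Cox4i2 and Higd1b, which are among the 22, a cell that lost them is not seen here, and these ratios are a description. None of the genes was 2-fold lower, and those 2-fold higher in at least 1 library were Rgs5, Abcc9 and Kcnj8, each with few UMIs in naive members (0, 3 and 8). Cox4i2 was lowest in Fas-/- members at 3 weeks, at 2328 CPM (2167 to 2498) against 3085 to 3419 CPM in the others, whereas Ndufa4l2 was highest in the same members, at 1957 CPM (1810 to 2114). That library was also the shallowest.

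**Figure D3:**
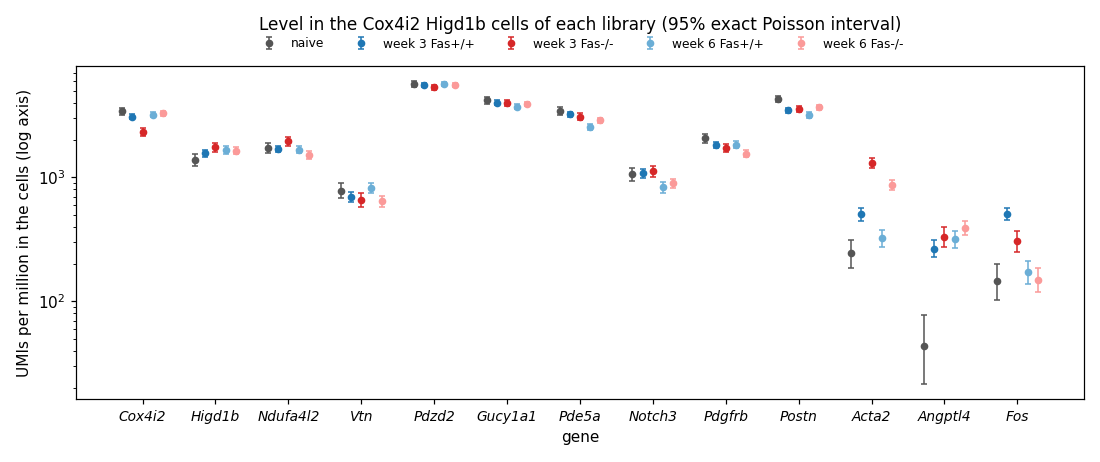
Level of 13 genes in the pericyte-like cells of each single-cell library, in CPM on a log axis, with 95% exact Poisson intervals. Marker genes such as Pdzd2 and Gucy1a1 stay within a narrow band in all 5 libraries, whereas Angptl4 is at 43.2 CPM in the naive library and at 267 to 392 CPM in the others.

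Angptl4, which encodes a secreted inhibitor of lipoprotein lipase, was among the 10 genes with the highest ratios against naive members in both weeks. It was at 43.2 CPM (21.6 to 77.3) in naive members, 267 and 332 CPM in Fas+/+ and Fas-/- members at 3 weeks, and 317 and 392 CPM at 6 weeks. It was seen in 6 of 49 naive members, and in 61 of 108, 44 of 83, 51 of 80 and 73 of 111 members of the other libraries. The part of free RNA in these levels and counts of cells was not tested. The 4 libraries after bleomycin were all above the naive one, by 2.51 to 3.06 on the log2 scale. Other classes moved the same way, from 146 to between 290 and 497 CPM in Npnt fibroblasts and from 26.6 to between 89.1 and 123 CPM in Myh11 cells, so a higher level after bleomycin was not limited to the pericyte-like cells.

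Several other genes were at or near 0 in naive members. Socs3, an inhibitor of cytokine signalling, had 0 UMIs in the naive members. A limit set at 3 UMIs allows up to 11.8 CPM there, and the exact Poisson limit for 0 UMIs is 14.5 CPM. In the others Socs3 was at 41.3, 75.4, 49.8 and 133 CPM, in 17 of 108, 18 of 83, 18 of 80 and 26 of 111 cells. In the last library 1 cell held 57.9% of the Socs3 UMIs, and without the highest cell its log2 ratio to naive went from 5.09 to 3.87. Cdkn1a, the cell cycle inhibitor p21, was at 3.93 CPM in naive members and at 57.1, 90.5, 57.7 and 71.5 CPM in the others. These levels rest on few molecules, with 1 Cdkn1a UMI in the naive members and 29 to 41 in each other library. Rgs5 had 0 UMIs in 49 naive members and 95.2, 90.5, 133 and 174 CPM after bleomycin, but it was confined to 7, 12, 11 and 5 cells, and 1 cell held 92.0% of its UMIs in the last library. On the lower side, the hemoglobin gene Hbb-bs was at 165 CPM in naive members and at 1.74 to 18.1 CPM in the others. The summed level of the 5 red cell genes was 252 CPM in naive members and 3.49 to 28.6 CPM in the others.

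The summed level of the 16 contractile genes was 4893, 5500, 7959, 5551 and 6608 CPM in the 5 libraries, so that both Fas-/- libraries were above the Fas+/+ library of the same week. The summed vascular smooth muscle markers, which include Acta2, moved with it, at 424, 706, 1626, 498 and 1134 CPM. The summed Hhip myofibroblast markers were at 562, 557, 835, 583 and 602 CPM. The part of such cells in the contractile level was not tested. Acta2 was likewise higher in Fas-/- than in Fas+/+ members of the same week, at 244, 503, 1318, 325 and 872 CPM. However, a single member held 22.1 to 29.3% of its UMIs in each library. Without the 13 members that lacked a Pdzd2 UMI, Acta2 was at 244, 322, 904, 326 and 409 CPM. Fas-/- members were again above Fas+/+ members in each week, with a smaller difference at 6 weeks. The share of members with an Acta2 UMI after thinning to 3000 UMIs was 34.1%, 37.2%, 50%, 34.3% and 30.9%, against 33.3% of the 9 Cdh5 cells of the naive library and 14.8 to 19.3% of those of the others. No order is read from these shares. Spp1, which encodes the matricellular protein osteopontin, was at 2983, 5890, 2313, 6433 and 3148 CPM, and here both Fas+/+ libraries were above the Fas-/- library of the same week. After thinning, 52.3%, 61.7%, 45.0%, 80.6% and 60.5% of members had a UMI of Spp1, against 0%, 5.52%, 3.70%, 35.7% and 44.8% of the Cdh5 cells, at 0, 24.2, 16.7, 150 and 258 CPM. The share in cells that measure free RNA was thus high at 6 weeks, and the part of free RNA in the members' shares was not tested. No test of these orders was possible with 1 library each.

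The genotypes were set side by side within each week. Members of Fas-/- mice had 2.35% of genes 2-fold above and 2.80% below those of Fas+/+ mice at 3 weeks, and 3.11% above and 1.44% below at 6 weeks. In the Fas-/- members at 3 weeks Gstp1, a glutathione transferase, had 9.05 CPM (3 of 83 cells) where the Fas+/+ members had 190 CPM (68 of 108 cells), and Ctsc, which encodes cathepsin C, had 154 CPM (30 cells) where they had 27.0 CPM (13 cells). As Gstp1 has near-identical copies, its level is uncertain, and how reads were divided among them was not tested. At 6 weeks the Fas-/- members had 27.9 CPM of Kcnj8 and 27.9 CPM of Abcc9, and the Fas+/+ members 109 and 75.7 CPM, and no other pericyte gene with at least 20 UMIs passed 2-fold between the genotypes in either week. However, 1 cell held 45.5% and 36.8% of these UMIs in the Fas+/+ members, and without the highest cell the log2 ratios went from -1.91 to -1.24 for Kcnj8 and from -1.39 to -0.93, below 2-fold, for Abcc9. In that setting 2 of the 19 pericyte genes with enough UMIs were still 2-fold lower, so a gene other than Abcc9 passed beside Kcnj8. Xist, the RNA of the inactive X chromosome of females, was at 230 CPM (27 of 111 cells) in Fas-/- and 577 CPM (41 of 80 cells) in Fas+/+ members of that week, a log2 ratio of -1.32 (-1.63 to -1.02), and the part of the sex of the pooled mice in this comparison was not tested. Fas itself was scarce in these cells, with 7, 13, 10, 9 and 17 UMIs in the members of the 5 libraries (17.9 to 30.2 CPM) and a UMI in 9.98% of members against 64.4% of the Cdh5 cells.

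A part of the differences came from single cells. In Fas-/- members at 6 weeks 1 cell held 98.4% of the UMIs of Ccl7, 95.5% of Ccl2, 93.3% of Cxcl1 and 96.3% of Saa3, which encode chemokines and an acute phase protein. Without the highest cell of each gene, the number of cytokine and adhesion genes 2-fold higher than in naive members went from 7 of 12 to 4. Over all 6302 genes compared, the number 2-fold higher went from 264 to 399 and the number 2-fold lower from 236 to 200. As 1 cell is a larger part of 49 naive members than of 111, leaving it out can itself raise ratios to naive. Nothing is therefore read from this move. In naive members 1 cell likewise held 87.1% of the UMIs of Pcolce2 and 69.2% of Mfap4, genes of fibroblast matrix. After these values were seen, members were also divided by Rgs5. The 21 members with at least 2 Rgs5 UMIs (0, 3, 7, 8 and 3 in the 5 libraries) had 2875 CPM of Pdzd2 and 230 CPM of Kcnj8, whereas the 396 members without one had 5870 and 38.4 CPM. Fabp4, a gene of capillary endothelium and fat cells, moved with this split, at 552 against 4.43 CPM, and its part in it was not tested. The 13 members without a Pdzd2 UMI had 11476 CPM of Acta2 and 981 CPM of Fabp4 against 419 and 28.5 CPM in the others, and 0 of the 13 came from the naive library.

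The bulk libraries, whose values the choice of cells did not use, were then examined for the same genes. They held 11819700 to 25189096 counts each, and 15773 genes were tested. Values are CPM after TMM normalization, n = 4 libraries per group, and tests are the quasi-likelihood test of edgeR with p-values adjusted by Benjamini-Hochberg over all genes. In such samples fewer cells of a type and less RNA per cell cannot be told apart. All 22 pericyte genes, rule genes included, were tested.

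At 3 weeks after bleomycin the pericyte genes were lower than in naive mice. In Fas+/+ mice 14 of 22 fell and 0 rose, where 19.2% of all genes fell and 22.1% rose, and in Fas-/- mice 11 fell and 0 rose, where 14.8% fell and 17.2% rose. Their median log2 fold changes were -0.77 and -0.60, against 0.01 and 0.02 over all genes. Cox4i2 was at 57.0, 54.3, 45.0 and 36.3 CPM in the 4 naive libraries and at 32.4, 24.3, 23.9 and 27.6 CPM in Fas+/+ libraries at 3 weeks, which did not overlap (log2 fold change -0.83, SE 0.227, edgeR adjusted p = 0.00749). In Fas-/- libraries it was at 34.1, 41.5, 34.9 and 16.5 CPM, which overlapped with the naive range, and its change of -0.60 only just passed (adjusted p = 0.0498). This call did not hold when replicate 4 of these mice was left out (-0.40, edgeR adjusted p = 0.0973) or naive replicate 1 (-0.53, adjusted p = 0.118), nor without Fas-/- replicate 1 or 3 or naive replicate 2 or 3 (adjusted p from 0.0559 to 0.115).

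Vtn was at 58.8, 45.2, 37.6 and 35.9 CPM in naive libraries, at 24.2, 18.2, 14.4 and 18.1 CPM in Fas+/+ and at 24.8, 23.2, 21.1 and 9.43 CPM in Fas-/- libraries at 3 weeks. Neither group overlapped with naive, and the log2 fold changes were -1.24 and -1.18 (SE 0.272 and 0.271; edgeR adjusted p = 0.00172 and 0.00365). Ndufa4l2 fell from 38.1 to 46.8 CPM in naive libraries to 22.5 to 26.4 and 12.6 to 31.7 CPM in the same order, by 0.76 and 0.82 on the log2 scale. Pdzd2 dropped by 1.11 and 0.94, Higd1b by 0.84 and 0.86, Notch3 by 0.86 and 0.83, Adcy8 by 1.39 and 1.15, and Enpep, an aminopeptidase of the angiotensin system, by 1.22 and 0.87 on the log2 scale. All of these passed the test in both genotypes, but Higd1b not without naive replicate 1 (edgeR adjusted p = 0.0558 and 0.0615). Pdgfrb (-0.24 and -0.35), Cspg4 (-0.07 and -0.10), Kcnj8 (-0.16 and -0.10), Mcam (0.27 and 0.12) and Rgs5 (0.66 and -0.21) did not pass in either.

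**Figure D4:**
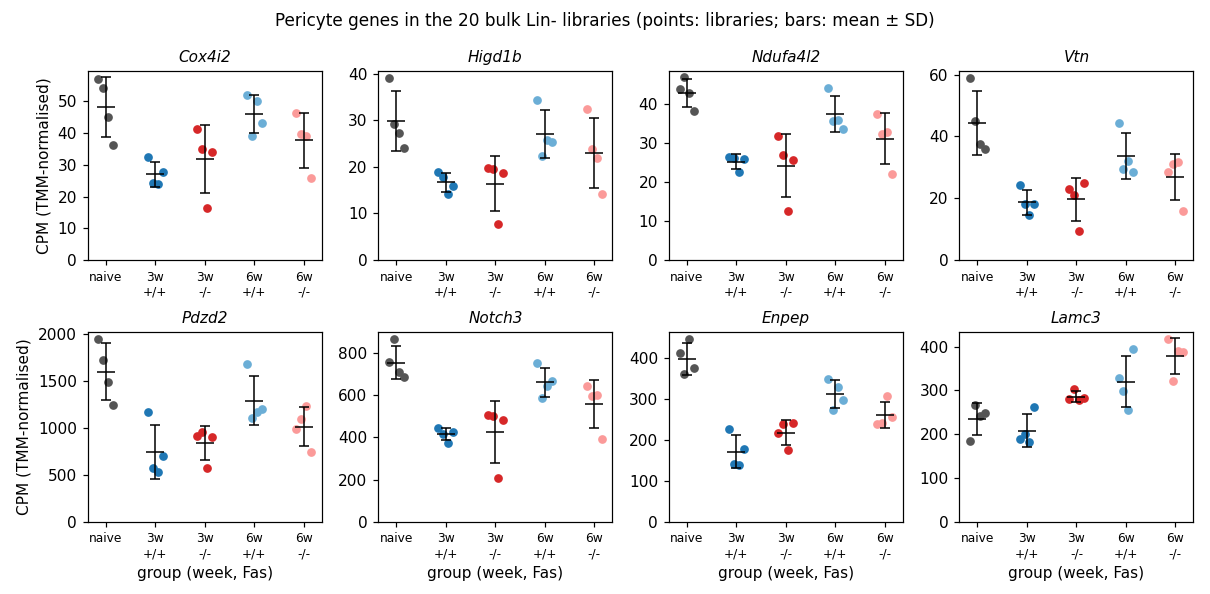
Levels of 8 pericyte genes in the 20 bulk libraries, in CPM with TMM normalization; points are libraries and bars the mean ± SD of 4. At 3 weeks the libraries of both genotypes lie mostly below the naive ones for Cox4i2, Higd1b, Ndufa4l2, Vtn, Pdzd2, Notch3 and Enpep, whereas Lamc3 has its highest mean in Fas-/- mice at 6 weeks.

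At 6 weeks edgeR called fewer of these genes against naive mice. In Fas+/+ mice 0 of 22 were called by edgeR in either direction (3 had an unadjusted p under 0.05, as did 19.5% of all genes), where 1.74% of all genes fell and 3.57% rose. DESeq2 called 1 of 22 higher in these mice, where it called 858 of all 15773 genes higher and 565 lower. In Fas-/- mice Enpep fell by 0.61 (adjusted p = 0.0174, and 0.0625 without naive replicate 3) and Lamc3, a laminin chain, rose by 0.69 (adjusted p = 0.00665), where 2.81% of all genes fell and 3.66% rose. On the lower side 7 of the 22 had an unadjusted p under 0.05 in Fas-/- mice, as did 9.64% of all genes, and 4 were called by DESeq2, which called 4.82% of all genes lower. Lamc3 was at 183, 266, 241 and 248 CPM in naive libraries and at 419, 321, 389 and 389 CPM in Fas-/- libraries at 6 weeks, with no overlap. The median log2 fold change of the 22 genes was -0.18 in Fas+/+ and -0.38 in Fas-/- mice, 18 of 22 were negative in each, and 7 did not overlap with naive on the lower side in Fas-/- mice (7.82% of all genes) and 1 in Fas+/+ mice (7.35% of all genes). Between the genotypes, edgeR called 0 of 22 genes at 3 weeks (3 with an unadjusted p under 0.05, where 8.62% of all genes had one; lowest adjusted p = 0.237) and at 6 weeks (1, where 8.07% had one; lowest adjusted p = 0.486), where edgeR called 0.165% and 0.0254% of all genes higher and 0.00634% and 0.0254% lower. DESeq2 also called 0 of 22 in both weeks, and over all genes it called 143 higher and 24 lower at 3 weeks and 50 and 120 at 6 weeks. Without Fas-/- replicate 4 at 3 weeks, the library with the highest endothelial level of its group, 1 of 22 was called higher, and over all genes 281 were higher and 301 lower in place of 26 and 1. The interaction of genotype with week was called by edgeR for 0 of 22 (1 with an unadjusted p under 0.05, lowest adjusted p = 0.394). The share of all genes called for this interaction is not given, so nothing about the pericyte genes is read from these counts. Whole-gene counts of Fas were 22.1 ± 1.25 CPM in naive mice (SD, n = 4), 41.0 ± 11.3 (Fas+/+) and 44.2 ± 14.2 CPM (Fas-/-) at 3 weeks, and 31.4 ± 6.24 (Fas+/+) and 40.4 ± 4.59 CPM (Fas-/-) at 6 weeks, and did not differ between the genotypes by edgeR (adjusted p = 0.910 and 0.719).

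The 40 genes most specific to the pericyte-like cells in the single-cell data were examined in the same way, and 12 of them are also among the 22 pericyte genes. At 3 weeks 26 of 40 fell and 1 rose in Fas+/+ mice (19.2% and 22.1% of all genes), and 23 fell and 1 rose in Fas-/- mice (14.8% and 17.2%), with medians of -0.77 and -0.73 on the log2 scale. Of the 28 that are not among the 22, 17 and 16 fell. The gene that rose was Hbegf, an epidermal growth factor ligand (0.72 and 0.54; in Fas-/- mice its call was lost without Fas-/- replicate 1, 2 or 3 or naive replicate 1, 3 or 4, with edgeR adjusted p from 0.0517 to 0.123). Postn, which was specific to these cells in single cells, did not pass the test in bulk (-0.07 and -0.24). At 6 weeks edgeR called 0 of 40 lower in Fas+/+ mice (1 with an unadjusted p under 0.05, against 8.65% of all genes). DESeq2 called 1 of 40 lower in these mice, where it called 565 of all 15773 genes lower. In Fas-/- mice edgeR called 1 lower, the chemokine receptor gene Cxcr4 (-1.04, adjusted p = 0.0170), but not without naive replicate 2 (edgeR adjusted p = 0.0501). On the lower side 20 of 40 had an unadjusted p under 0.05 in Fas-/- mice and DESeq2 called 9, against the 9.64% and 4.82% of all genes given above. In the plot of both measures, the 40 genes scatter around 0 along the single-cell axis and lie mostly below 0 along the bulk axis. The genes were chosen for a high level in these cells in every library, so their place along the single-cell axis was in large part set by the choice and is a description.

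**Figure D5:**
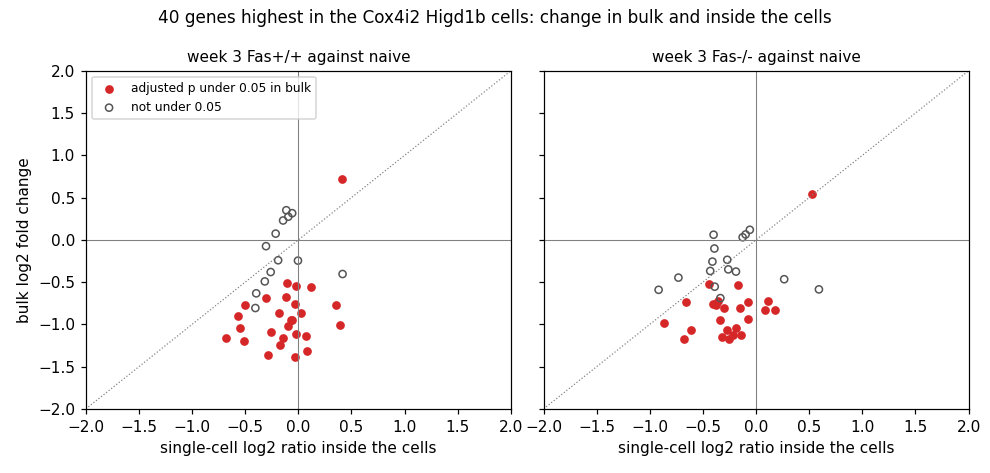
Change at 3 weeks against naive for the 40 genes specific to pericyte-like cells: log2 ratio between the single-cell libraries inside these cells (x axis) and log2 fold change in bulk (y axis), for Fas+/+ (left) and Fas-/- mice (right). Each point is a gene and red marks an edgeR adjusted p under 0.05 in bulk; 26 and 23 genes fell in bulk.

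Other gene groups changed in the same bulk libraries, where 19.2% (Fas+/+) and 14.8% (Fas-/-) of all genes fell and 22.1% and 17.2% rose at 3 weeks. At that time vascular tone genes fell in 12 of 20 (Fas+/+) and 10 of 20 (Fas-/-), and contractile genes in 8 and 9 of 16, whereas 14 and 11 of 26 genes of fibrillar matrix rose. Markers of other Lin– cells fell together with the pericyte genes: 6 and 4 of 7 of alveolar fibroblasts, 5 and 6 of 7 of adventitial fibroblasts, 4 and 3 of 5 of Hhip myofibroblasts, 5 and 6 of 7 of vascular smooth muscle, and 5 and 3 of 5 of mesothelial cells. The 5 red cell genes fell in both genotypes. Markers of cells that the sort should remove rose: 10 and 9 of 10 endothelial markers, 7 and 7 of 8 immune markers, and 6 and 7 of 8 epithelial markers. The summed endothelial level was 187 to 488 CPM in naive libraries, 2504 to 9764 CPM in Fas+/+ and 681 to 8636 CPM in Fas-/- libraries at 3 weeks, and 503 to 1862 and 138 to 2805 CPM at 6 weeks. The summed level of the 22 pericyte genes was 4825 to 6124 CPM in naive libraries, 3340 to 3901 and 2834 to 4206 CPM at 3 weeks, and 4447 to 5661 and 3665 to 4939 CPM at 6 weeks. Without the 4 libraries with the highest endothelial level (Fas+/+ replicates 1 and 2 and Fas-/- replicate 4 at 3 weeks, and Fas-/- replicate 2 at 6 weeks), 7 of 22 pericyte genes and 17 of the 40 specific genes were lower in Fas-/- mice at 6 weeks than in naive mice, in place of 1 and 1, where 4.80% of all genes were lower in place of 2.81%. At 3 weeks, 14 (Fas+/+) and 9 (Fas-/-) of 22 pericyte genes and 28 and 23 of the 40 specific genes were lower in that fit, where 20.6% and 18% of all genes were lower.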

How the data were processed

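For single cells, the authors made filtered UMI count matrices with Cell Ranger 3.0.2 on GRCm38 and deposited them as counts. For bulk RNA-seq (KAPA stranded mRNA kit), the methods of the study name skewer for trimming, HISAT2 for alignment (GRCm38) and htseq-count over Ensembl genes, and the authors deposited raw counts, which were used; their normalized table was not. Members, gene lists and tests were chosen with earlier results of these data known. UMIs were summed over members per library (CPM). Class sums (library as block) and bulk counts (5 groups in 1 fit) were tested with edgeR 4.0.16 in R 4.3.3: filterByExpr, TMM, quasi-likelihood F test, Benjamini-Hochberg. Alternatives were DESeq2 1.42.0, RLE, no filter, a replicate block, a 2-fold minimum and leaving out each replicate; the restrictions by depth, highest cell, endothelial level, Cdh5 cells and shared barcodes were chosen after seeing the data. Genes are named from the lists and, per class comparison, as the 10 higher and 10 lower with the lowest adjusted p, at least 2-fold and alike in all 5 libraries; between libraries, as the 10 highest and 10 lowest ratios against naive per week, and 5 each between genotypes. Specific genes are the 40 with the highest ratio of members over other kept cells (pseudocount 10 CPM, at least 50 UMIs, and a log2 ratio of at least 1 in every library). Library ratios used a pseudocount of 1 UMI. Scrublet (scanpy 1.11.5) called 49 of 12059 cells (0.406%) doublets, too few to have worked, so none were removed; 2 were members. The labels do not say whether bulk replicates are separate mice, whereas the methods of the study define n as individual animals. On simulated bulk counts of 15773 genes for Fas+/+ at 3 weeks against naive, edgeR recovered 61% of 2-fold and 9% of 1.5-fold changes. For members against Npnt fibroblasts (10207 genes) it recovered 97% of 4-fold and 63% of 2-fold changes. Both simulations gave every gene the same fixed spread between libraries and held no outlying library, so recovery in the real data was not tested.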

Additional observations from a re-analysis of the deposited data

Results flagged for a closer look

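In 120 groups of 4 bulk libraries, 18 held 1 library whose gap to the nearest other exceeded the 95% critical value of Dixon's test, where chance alone flags about 1 in 20 groups.

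Most of these lay in Fas-/- replicate 4 at 3 weeks. It was low in Higd1b (7.64 CPM, others 18.7 to 19.7), Pdzd2 (566, others 904 to 951), Notch3 (207, others 485 to 508), Rgs5 (6.12, others 17.1 to 19.4), Kcnk3 (52.9, others 104 to 106), Art3 (9.17, others 19.5 to 20.8), Foxs1 (8.46, others 18.2 to 19.4) and Heyl (143, others 229 to 234), and in the summed level of the 22 pericyte genes (2834 CPM, others 4058 to 4206). The same library was high in Mcam (618 CPM, others 267 to 297), which endothelial cells also express, and in the summed endothelial markers (8636 CPM, others 681 to 1153). The part of endothelial RNA in its low pericyte genes was not tested.

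High endothelial sums were also seen in Fas+/+ replicate 1 at 3 weeks (9764 CPM, others 2504 to 3339) and Fas-/- replicate 2 at 6 weeks (2805 CPM, others 138 to 472). The remaining libraries that stood apart concerned single genes: Ndufa4l2 was low in Fas+/+ replicate 3 at 3 weeks (22.5 CPM, others 25.9 to 26.4), Trpc6 was high in Fas+/+ replicate 1 at 3 weeks (28.5 CPM, others 21.6 to 22.2) and low in Fas-/- replicate 4 at 6 weeks (17.9 CPM, others 30.6 to 31.4), Pdzd2 was high in Fas+/+ replicate 1 at 6 weeks (1676 CPM, others 1107 to 1200), and Lamc3 was high in Fas-/- replicate 3 at 3 weeks (304 CPM, others 278 to 282).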

How the results depend on the processing

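The share of pericyte-like cells in Fas+/+ mice at 6 weeks (2.47% of kept cells) was 4.45% of cells without Cdh5, Epcam and Ptprc, 4.37% of cells without Cdh5 and 4.56% with shared barcodes also counted only in their deepest library. Without the highest cell of each gene, 322 (Fas+/+ at 3 weeks), 313 (Fas+/+ at 6 weeks) and 399 (Fas-/- at 6 weeks) genes were 2-fold higher than in naive members, in place of 169, 180 and 264, and Dpep1 (Fas+/+ at 3 weeks against naive) changed from -1.84 to 0.28 and Apod (Fas-/- against Fas+/+ at 3 weeks) from -2.98 to 2.51 on the log2 scale. The naive library has the fewest members, so leaving out 1 cell can itself raise ratios to naive. With a pseudocount of 10 CPM, 118, 159, 122 and 105 genes were 2-fold lower than in naive members (302, 243, 207 and 236), and between genotypes 70 were higher and 118 lower at 3 weeks (153 and 182) and 136 and 35 at 6 weeks (222 and 103); 137 were higher at 6 weeks with Cox4i2 at 1 per 1000 UMIs or more.

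Requiring a 2-fold change left 610 higher and 816 lower genes against Myh11 cells, 736 and 1051 against Hhip cells, and 972 and 1476 against Npnt fibroblasts; DESeq2 called 1024 higher against Myh11 cells, and without the filter 2957 were lower against Hhip cells. Leaving out 1 library at a time gave 1359 to 1582 higher and 1453 to 1759 lower genes against Myh11 cells, 1401 to 1897 and 1591 to 2201 against Hhip cells, and 1776 to 2123 and 2243 to 2823 against Npnt fibroblasts.

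In bulk at 3 weeks, a 2-fold minimum left 5 pericyte genes and 13 specific genes lower in Fas+/+ and 3 and 8 in Fas-/- mice, and 0 specific genes higher in both. The share of all genes that passed this minimum is not given, so these counts are not set against it. Leaving out 1 replicate at a time gave 12 to 15 and 9 to 11 lower pericyte genes, 24 to 28 and 19 to 24 lower specific genes, and 0 to 1 higher specific genes in Fas-/- mice. Over all genes it gave 2527 to 3606 lower in Fas+/+ mice, and 1909 to 2400 lower and 1989 to 2402 higher in Fas-/- mice. At 6 weeks in Fas+/+ mice, 1 pericyte gene was higher by DESeq2 or without the 4 libraries highest in endothelial markers, 1 was lower in a fit of the 2 groups alone or without those 4 libraries, and 1 specific gene was lower by DESeq2, in the 2 groups, without those 4, or without replicate 1 (0 to 1 on leaving out 1). Of all genes, 858 were higher by DESeq2 and 1407 of 16260 without those 4, against 563 of 15773 in the main fit. Lower were 565 by DESeq2, 629 of 14908 in the 2 groups and 879 of 16260 without those 4. On leaving out 1, 110 to 315 genes were lower (315 without replicate 1), against 274 in the main fit. At 6 weeks in Fas-/- mice the lower pericyte genes were 4 by DESeq2, 4 in the 2 groups alone, 7 without the 4 libraries, 0 with a 2-fold minimum (which also left 0 higher), and 0 to 1 on leaving out 1. The lower specific genes were 9 by DESeq2, 2 by RLE, 7 in the 2 groups and 17 without the 4 libraries, and 0 to 2 on leaving out 1. Of all genes, 761 were lower by DESeq2, 499 by RLE, 650 of 14616 in the 2 groups and 781 of 16260 without the 4 libraries. On leaving out 1, 227 to 387 were lower, against 444 of 15773 in the main fit. Between genotypes, 1 pericyte gene was higher at 3 weeks without those 4 libraries, where 142 of all 16260 genes were higher. At 6 weeks 1 (DESeq2) or 2 (without the 4) specific genes were lower, where 120 of 15773 and 316 of 16260 genes were lower. Without Fas-/- replicate 4 at 3 weeks 1 gene of each list was higher (0 to 1 on leaving out 1). In that fit 281 genes in all were higher and 301 lower, in place of 26 and 1 (0 to 281 higher on leaving out 1).

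Of the named bulk genes called, 366 values kept their call under the other settings and 12 lost it, and on leaving out 1 library 471 kept it and 33 lost it; none changed direction, and the cause was not tested.

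Same-numbered libraries of different groups shared only a number: 40 such pairs had a median correlation of 0.054 (-0.61 to 0.53) and 7 of 20 libraries correlated best with their own number. With the replicate block, 3 pericyte genes and 6 specific genes were lower in Fas-/- mice at 6 weeks, and 1 specific gene in Fas+/+ mice. Over all 15773 genes, 421 (Fas-/-) and 255 (Fas+/+) were lower in that fit, in place of 444 and 274. The comparisons with naive members rest on 1 library of 49 cells.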
